A study of Mus musculus with 7 samples.

Results

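The amyloid precursor family and the enzymes that cut its members were examined in hippocampal synaptoneurosomes of mice given the cannabinoid receptor antagonist AM6545. The set was chosen by name, with earlier results of these data known. It holds 7 of the 22248 genes in the deposited table: the precursor genes App, Aplp1 and Aplp2, the sheddase genes Adam10 and Bace1, and the gamma-secretase genes Psen2 and Ncstn. All 7 passed the filter on low counts. They own 54 of the 102392 deposited transcripts, of which 47 had a count in any library and 25 passed the filter. All animals were wild-type C57Bl/6J females. AM6545 was given sub-chronically for 4 libraries (replicates B, D, E and F) and vehicle for 3 (replicates B, D and E). The labels give neither the age, the dose, the duration nor the number of mice behind a library, and do not say whether replicates came from separate mice, so p-values measure only the spread between these libraries, which may be technical. AM6545 blocks the CB1 receptor and enters the brain poorly. Synaptoneurosomes are a fraction of brain tissue enriched in nerve endings with the attached postsynaptic side.

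The precursor proteins cross the membrane once and are cut in steps. Alpha-secretase, mainly ADAM10 in neurons, sheds the large outer part of APP within the sequence of the amyloid-beta peptide, whereas beta-secretase, BACE1, cuts at the start of that sequence. The stub left by beta-secretase is then cut inside the membrane by gamma-secretase, a complex of a presenilin with nicastrin, APH1 and PEN-2, which frees the amyloid-beta peptide. APLP1 and APLP2 are shed by some of the same enzymes but hold no amyloid-beta sequence. All of these proteins are found at synapses of the hippocampus.

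The 3 exons below, skipped in part of the transcripts, decide which form of a member is made, and their sequences are shown because the transcript results are read through them. They were taken from the GENCODE M21 transcripts (GRCm38) and are written in the direction of the gene. App and Aplp2 each have a 168-base exon 7 for a Kunitz-type protease inhibitor domain of 56 codons. Both lie on the minus strand, at chr16:85043576-85043743 and chr9:31167561-31167728. Capitals mark the 114 of 168 positions (67.9%) at which the pair is identical. Exon 6 of Bace1, 102 bases or 34 codons at chr9:45858400-45858501 on the plus strand, holds codons 289 to 292, in capitals, which are those of the second catalytic aspartate of the protease and the 3 residues after it.
App Kunitz exon: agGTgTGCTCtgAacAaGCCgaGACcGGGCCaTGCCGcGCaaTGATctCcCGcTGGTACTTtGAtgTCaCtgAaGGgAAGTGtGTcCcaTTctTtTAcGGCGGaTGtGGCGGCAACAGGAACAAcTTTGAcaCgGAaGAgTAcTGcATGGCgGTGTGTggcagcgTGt
Aplp2 Kunitz exon: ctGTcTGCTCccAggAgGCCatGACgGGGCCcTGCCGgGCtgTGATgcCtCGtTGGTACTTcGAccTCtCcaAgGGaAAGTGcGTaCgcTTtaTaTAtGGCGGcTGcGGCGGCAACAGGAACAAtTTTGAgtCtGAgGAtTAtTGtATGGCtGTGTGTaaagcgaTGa
Bace1 exon 6: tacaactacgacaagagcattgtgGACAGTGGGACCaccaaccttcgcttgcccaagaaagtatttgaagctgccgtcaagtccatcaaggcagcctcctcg

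Estimated counts summed to between 19174649 (Vehicle E) and 25894733 (Vehicle B) per library. Mitochondrial transcripts held 5.07% to 6.66% of counts in the AM6545 libraries and 6.11% to 9.83% in the Vehicle libraries, with Vehicle B the highest. The slope of a gene's deviation on its GC content ran from -0.12 to -0.03 on the log2 scale per 10 percentage points in the AM6545 libraries and from 0.05 to 0.13 in the Vehicle libraries, so the groups did not overlap in it. This trend and the group therefore cannot be told apart, and subtracting the trend may also remove part of a group difference. All 10 neuron and synapse markers were detected, and their summed level was 9081 to 9354 CPM with AM6545 and 8259 to 8954 with vehicle, again without overlap. Singly, 6 of these markers were higher and 4 lower with AM6545, 0 at an unadjusted p under 0.05, with a median log2 fold change of 0.11. All 6 hippocampal markers were detected too, at 1292 to 1385 against 1289 to 1444 CPM. The fraction also held RNA of other cells: 9 of 9 microglial markers summed to 848 to 926 CPM with AM6545 and 904 to 1167 with vehicle, 8 of 8 oligodendrocyte markers to 6695 to 8328 against 5857 to 8827, and 9 of 9 astrocyte markers to 4156 to 5212 against 4350 to 5628. The 6 choroid plexus markers, all detected, summed to 60.3 to 281.7 CPM with AM6545 and 173.2 to 287.7 with vehicle. Of the microglial markers 7 of 9 were lower with AM6545, with a median log2 fold change of -0.45. An unadjusted p under 0.05 was reached by 6 of the 9, against 14.6% of all genes. Of the choroid plexus markers 6 of 6 were lower, none at that p, with a median of -0.23. None of these markers was at 0. The part of the marker levels and of the mitochondrial share in the results was not tested; gene fold changes of the members are given with and without the library trends in GC content and length. In such bulk RNA, fewer cells or endings of a type and less RNA in each cannot be told apart.

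No member passed the threshold of 0.05 on the adjusted p between AM6545 and Vehicle (edgeR's quasi-likelihood test, Benjamini-Hochberg adjustment over 14654 genes), against a background of 0.00682% of the genes tested, which is 1 gene. An unadjusted p under 0.05 was reached by 2 of the 7, against 14.6% of all genes. That number was 0 after correction for GC content and length, 0 without Vehicle B and 3 without Vehicle E. The share of all genes at that p under those fits is not given here, so these numbers stand without a background. In the fit on all libraries the 2 were Adam10 on the higher side (5.86% of all genes) and Psen2 on the lower side (8.7%). These were also the 2 members whose groups did not overlap, against 13.8% of all genes, 6.63% higher and 7.19% lower. The 7 log2 fold changes ran from -0.32 to 0.33, with 3 above and 4 below 0 and a median of -0.02, beside a median of 0.01 over all genes tested. DESeq2 and limma-voom also called 0 of the 7, where they called 1.69% and 2.69% of all genes.

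The precursors were by far the most abundant members. Levels per transcript length, scaled to the same total in each library (TPM), were 2240 ± 142 for Aplp1, 1170 ± 169 for App and 451 ± 66.8 for Aplp2 (SD, n = 7). The enzyme genes followed with 70.8 ± 6.79 TPM for Ncstn, 34.8 ± 3.53 for Bace1, 27.8 ± 2.96 for Psen2 and 16.3 ± 3.43 for Adam10 (SD, n = 7). Each gene was above the next in this order in 7 of 7 libraries. Only for Bace1 and Psen2 did the ranges of neighbours overlap, at 30.9 to 39.4 and 23.2 to 31.7 TPM. The order of the last pair depends on the lengths used: with gene counts divided by the median length of a gene's transcripts, Adam10 (24.1 TPM) stood above Psen2 (19.6 TPM).

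**Figure D1:**
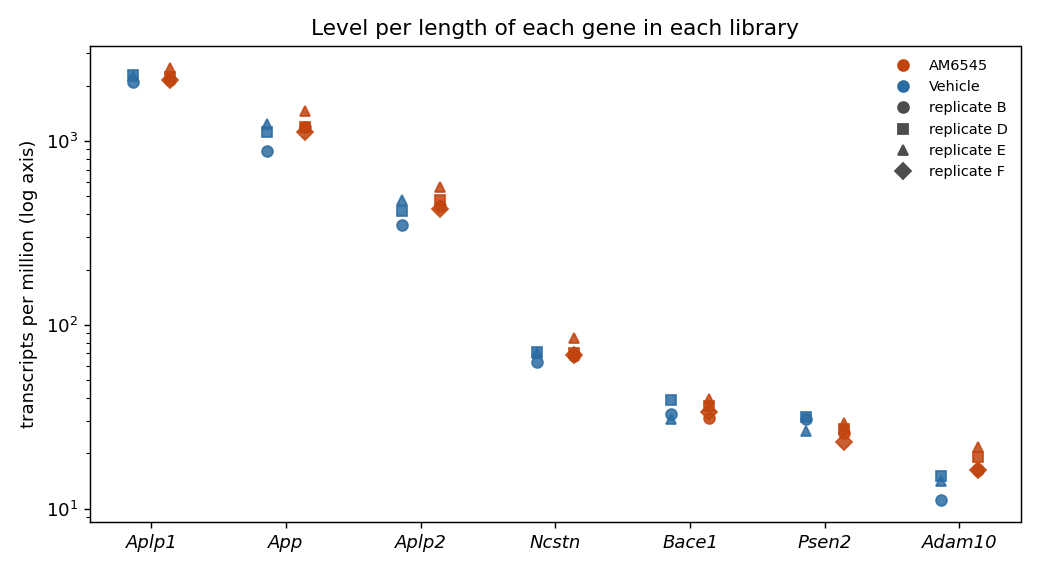
Level of each member in TPM (log axis), 1 point per library, coloured by group and shaped by replicate. The 3 precursor genes lie above all 4 enzyme genes, and Adam10 is lowest in each library.

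App encodes the amyloid precursor protein. It lies on chromosome 16 (84949685 to 85173766, minus strand). Its level, in TMM-scaled counts relative to library size (CPM), was 1979, 1968, 2334 and 1828 in AM6545 replicates B, D, E and F and 1740, 1858 and 2173 in Vehicle replicates B, D and E. The E library was the highest of each group, and the groups overlapped. The log2 fold change was 0.08 (SE 0.12, edgeR adjusted p = 0.788), 0.01 without Vehicle B, 0.0015 without AM6545 E and 0.17 without Vehicle E. When each library's own dependence on GC and length was subtracted, hereafter the GC and length correction, the difference was -0.0035.

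Aplp1 lies on chromosome 7 (30434982 to 30445535, minus strand). It measured 2586, 2667, 2932 and 2551 CPM with AM6545 and 2941, 2749 and 2895 CPM with vehicle. AM6545 replicate E sat among the Vehicle libraries and the other 3 AM6545 libraries below them all. This gave a log2 fold change of -0.09 (SE 0.10, edgeR adjusted p = 0.689), and 0.03 after the GC and length correction. At 60.2% its transcripts had the highest GC content of the 7 genes.

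Aplp2, expressed in most tissues, lies on chromosome 9 (31149557 to 31211815, minus strand). It measured 733, 757, 886 and 644 CPM with AM6545 and 565, 650 and 784 CPM with vehicle. As for App, the E library was the highest of each group. AM6545 over Vehicle gave a log2 fold change of 0.18 (SE 0.14, edgeR adjusted p = 0.538). It was 0.05 after the GC and length correction, 0.08 without Vehicle B and 0.31 without Vehicle E (adjusted p = 0.159). Over the 7 libraries log2 CPM of Aplp2 and App correlated with r = 0.96, the highest of the 21 pairs of members, while App and Aplp1 gave r = 0.35. These r describe 7 libraries that differ in depth, GC trend and group.

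Adam10, the main alpha-secretase of neurons, was the member with the highest fold change. It lies on chromosome 9 (70678997 to 70780229, plus strand). It measured 38.6, 44.8, 49.9 and 37.5 CPM in AM6545 replicates B, D, E and F and 30.9, 35.7 and 35.6 CPM in Vehicle replicates B, D and E. Each AM6545 library lay above each Vehicle library, the closest being AM6545 F and Vehicle D. The log2 fold change was 0.33 (SE 0.12, 1.25-fold, edgeR adjusted p = 0.266), which did not pass the threshold. Adam10 has the lowest GC content of the 7 genes, 42.1%, and the library trends with GC and length alone differed between the groups by 0.18 at its values. After that correction the log2 fold change was 0.14 (SE 0.09) and the groups overlapped. Without Vehicle B it was 0.26 (SE 0.13, edgeR adjusted p = 0.781). The GC trend coincides with the group, so their parts in the change of Adam10 cannot be told apart. The median depth was 892 counts.

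Bace1, the beta-secretase, lies on chromosome 9 (45838580 to 45864399, plus strand). It measured 74.8, 78.6, 84.8 and 75.1 CPM with AM6545 and 85.3, 86.8 and 73.4 CPM with vehicle. Vehicle E was the lowest of the 7 libraries and the other 2 Vehicle libraries the highest, so the groups overlapped. The difference in log2 was -0.06 (SE 0.10, edgeR adjusted p = 0.782), and -0.10 after the GC and length correction. Leaving out 1 library moved it between -0.14 (without Vehicle E) and -0.02 (without Vehicle D). The level of Bace1 is uncertain, since 30.3% of its 31-base words also occur in genes on the opposite strand, mainly Rnf214 and Gm49338, and the use of strand is not given in the sources used here.

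**Figure D2:**
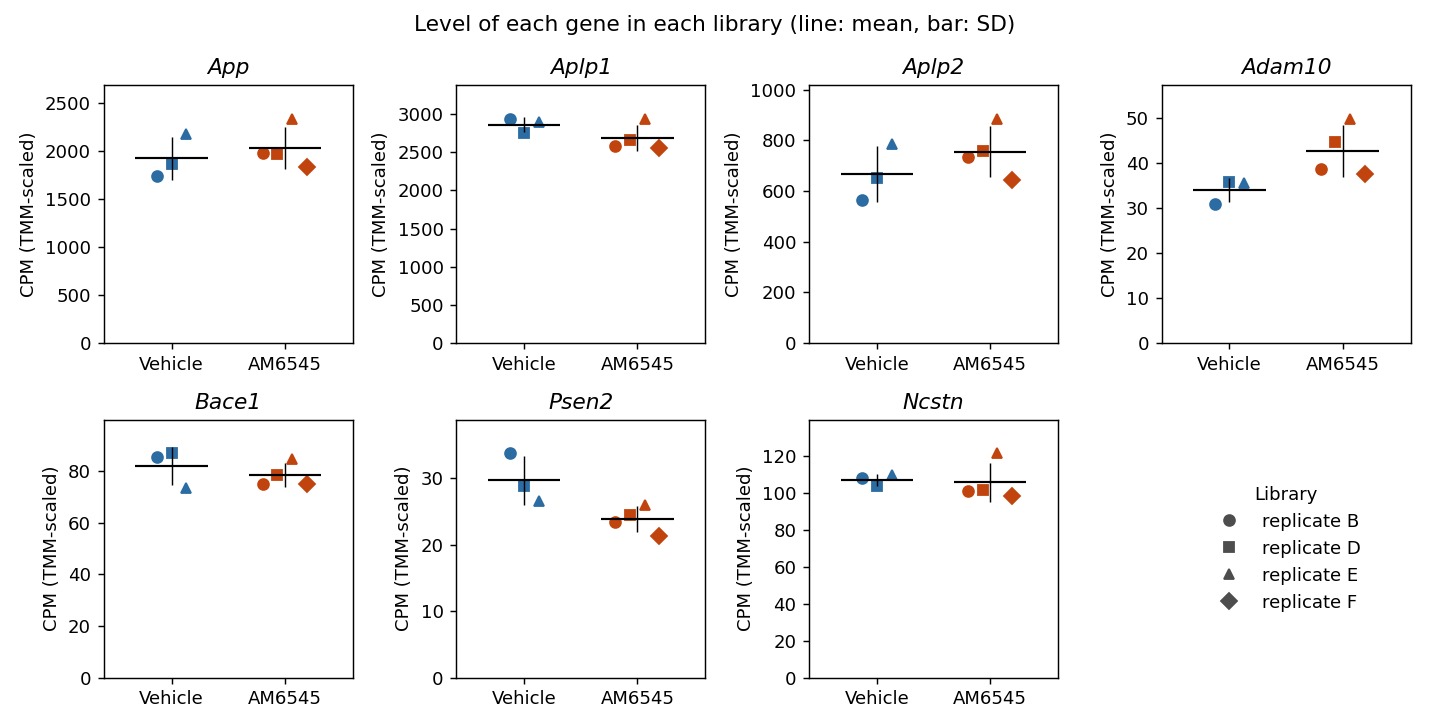
TMM-scaled CPM of each member, 1 point per library, with the mean (line) and SD (bar) of the 4 AM6545 and 3 Vehicle libraries; each vertical axis starts at 0. The groups are apart only for Adam10, at 37.5 to 49.9 against 30.9 to 35.7, and Psen2, at 21.3 to 26 against 26.6 to 33.7.

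Psen2 encodes presenilin 2, one of the alternative catalytic subunits of gamma-secretase, and had the lowest fold change. It lies on chromosome 1 (180227004 to 180263438, minus strand). It measured 23.4, 24.5, 26 and 21.3 CPM in AM6545 replicates B, D, E and F and 33.7, 28.8 and 26.6 CPM in Vehicle replicates B, D and E. Each AM6545 library lay below each Vehicle library, with AM6545 E and Vehicle E nearly level and Vehicle B farthest off. The log2 fold change was -0.32 (SE 0.11, 0.801-fold, edgeR adjusted p = 0.261), which did not pass the threshold. It was -0.22 (SE 0.11) after the GC and length correction, where the groups overlapped, and -0.22 (SE 0.11, adjusted p = 0.785) without Vehicle B. Without Vehicle E it was -0.39 (SE 0.12, adjusted p = 0.0628), the lowest adjusted p of any member under any of the 17 alternatives; that fit called 6.38% of all genes.

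Ncstn encodes nicastrin, the subunit that receives the shed stub. It lies on chromosome 1 (172066013 to 172082795, minus strand). It measured 101.1, 101.5, 121.3 and 98.4 CPM with AM6545 and 108.1, 103.5 and 109.4 CPM with vehicle. AM6545 replicate E was the highest of all and the other 3 AM6545 libraries the lowest. On the log2 scale the change was -0.02 (SE 0.10, edgeR adjusted p = 0.940), and -0.09 after the GC and length correction. It overlaps Copa on the opposite strand by 195 exonic bases.

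**Figure D3:**
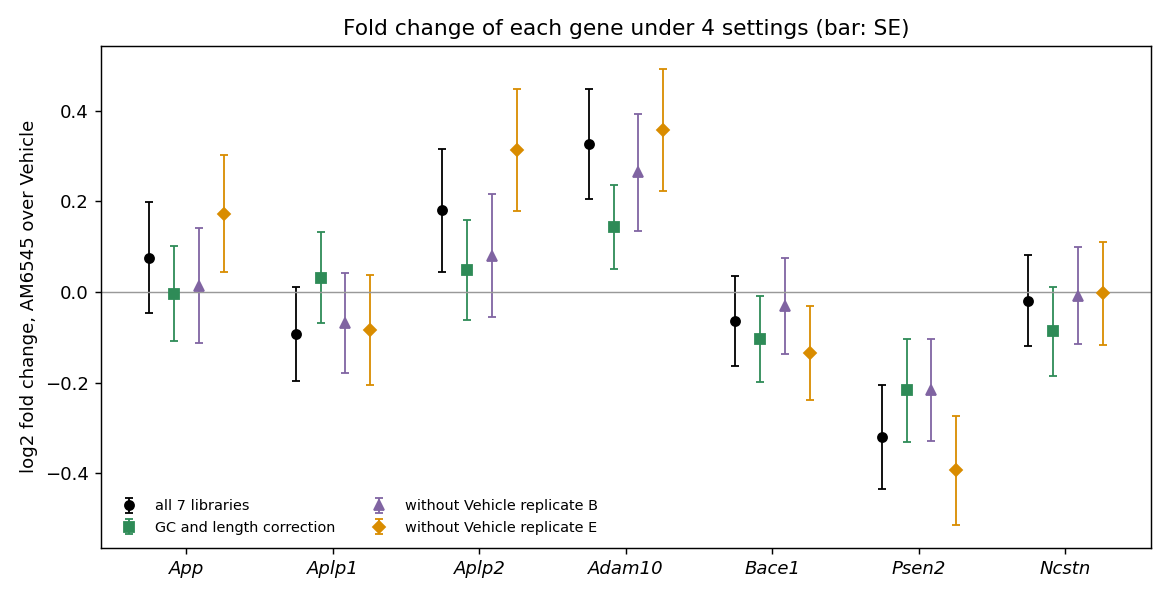
Log2 fold change of AM6545 over Vehicle for each member with its SE, fitted on all 7 libraries, after the GC and length correction, and without Vehicle replicate B or E. Adam10 lies above 0 and Psen2 below 0 under each of these 4 settings, with Adam10 at 0.33 on all libraries and 0.14 after the correction.

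Ratios of 2 members within a library do not depend on the scaling of the libraries, and 6 were tested. Their members were chosen with earlier results of these data known. The two-sided exact permutation test reassigns the 7 libraries to groups of 4 and 3 in all 35 ways. The smallest p it can give is 0.0286, or 0.0857 when adjusted as the 2 lowest of 6. The ratio of Adam10 to Bace1 sets alpha- beside beta-secretase and shares the uncertainty of the Bace1 level. It was 0.515, 0.570, 0.588 and 0.499 in AM6545 replicates B, D, E and F and 0.362, 0.412 and 0.485 in Vehicle replicates B, D and E. Each AM6545 library was above each Vehicle library, by 0.38 on the log2 scale between the means (exact p = 0.0286, adjusted p = 0.0857). The ratio of Psen2 to Ncstn sets 2 subunits of one complex beside each other. It was 0.232, 0.241, 0.214 and 0.216 with AM6545 and 0.312, 0.278 and 0.243 with vehicle. The groups were apart by -0.29 on the log2 scale (exact p = 0.0286, adjusted p = 0.0857), but AM6545 D and Vehicle E were nearly level. Neither passed 0.05 after adjustment. Adam10 and Psen2 were the 2 members whose own groups did not overlap, so these 2 ratios are not separate support for a difference. After the GC and length correction the difference was 0.24 for Adam10 to Bace1 (exact p = 0.114) and -0.12 for Psen2 to Ncstn (exact p = 0.143). Both had an adjusted exact p of 0.429. Without Vehicle B the differences were 0.28 and -0.20, both with an adjusted exact p of 0.4. The share of all gene pairs whose ratio separates the groups was not computed.

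The 4 other ratios overlapped between the groups. Aplp1 to App differed by -0.17 on the log2 scale (exact p = 0.114), Aplp2 to App by 0.11 (exact p = 0.0857), Aplp1 to Aplp2 by -0.28 (exact p = 0.0857) and Bace1 to App by -0.14 (exact p = 0.371). Adjusted over the 6 ratios, these p were 0.137, 0.129, 0.129 and 0.371. Vehicle B gave the highest value of all libraries for both ratios with Aplp1 over another precursor. After the GC and length correction the 4 differences were 0.03 for Aplp1 to App, 0.05 for Aplp2 to App, -0.02 for Aplp1 to Aplp2 and -0.09 for Bace1 to App. Without Vehicle B they were -0.08, 0.06, -0.15 and -0.04, in the same order. Bace1 to App was -0.07 without Vehicle D and -0.30 without Vehicle E.

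**Figure D4:**
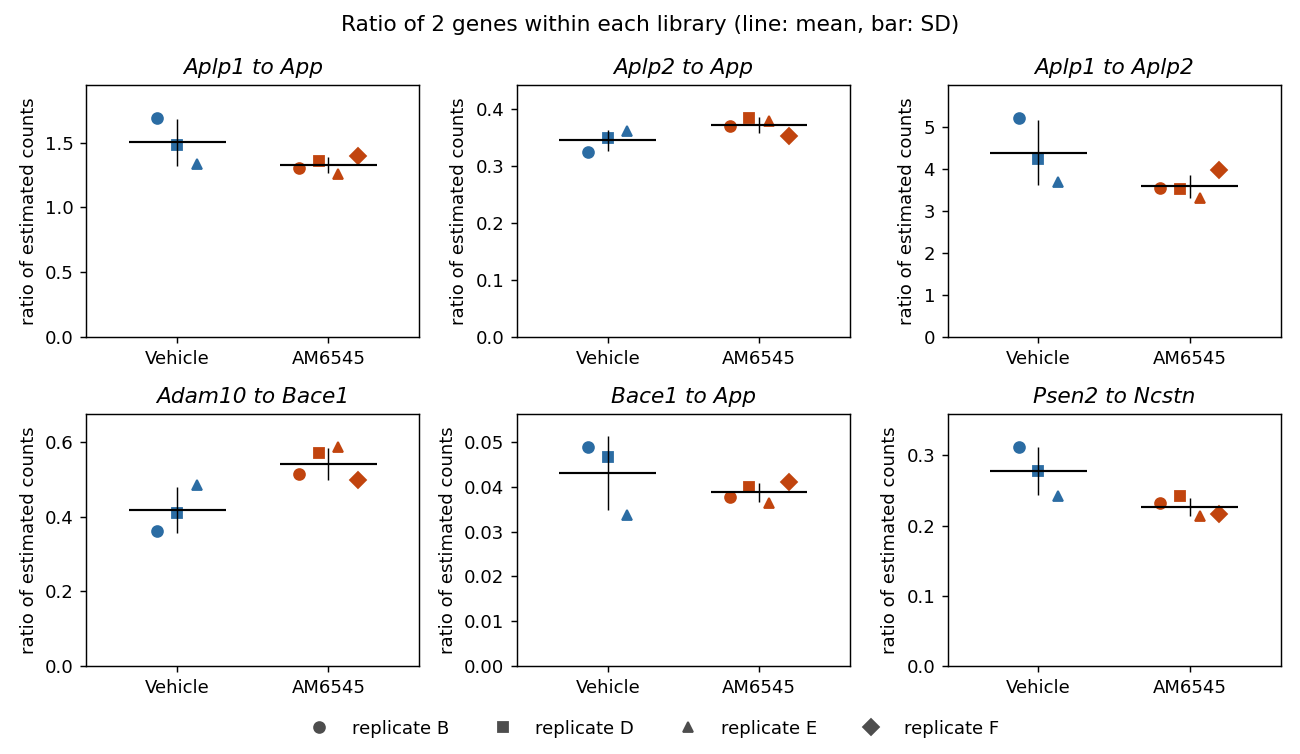
Ratio of the estimated counts of 2 members within each library, 1 point per library, with the mean (line) and SD (bar) of the groups; each axis starts at 0. The groups are apart for Adam10 to Bace1 (0.499 to 0.588 against 0.362 to 0.485) and Psen2 to Ncstn (0.214 to 0.241 against 0.243 to 0.312) and overlap for the other 4.

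The form of App made in these synaptoneurosomes was almost wholly the neuronal one. App-201, whose 695 codons leave out the Kunitz exon shown above, held 93.7% ± 0.241 (SD, n = 4) of App counts with AM6545 and 93.4% ± 0.143 (SD, n = 3) with vehicle. The share ran from 93.3% to 94.1% over the 7 libraries and the groups overlapped (exact permutation p = 0.114, adjusted p = 0.371 over the 13 transcripts that held at least 5% of their gene). Transcripts with the Kunitz exon held 6.23% ± 0.258 (SD, n = 4) of the counts of coding App transcripts with AM6545 and 6.50% ± 0.137 (SD, n = 3) with vehicle. Per transcript length the direction was reversed, at 4.70% ± 0.363 (SD, n = 4) and 4.41% ± 0.541 (SD, n = 3). The groups overlapped on both scales. The full form of 770 codons, App-206, which also keeps a 57-base exon 8, ran from 2.20% to 4.77% of App counts. Per transcript length it ran from 0.865% to 1.91%.

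Aplp2 was split between forms with and without the homologous Kunitz exon. Aplp2-201, with the exon (751 codons), held 39.8% ± 3.44 (SD, n = 4) of Aplp2 counts with AM6545 and 35% ± 4.57 (SD, n = 3) with vehicle. Aplp2-202, without it (707 codons), held 43.0% ± 1.25 (SD, n = 4) and 40.3% ± 4.80 (SD, n = 3). These differences of 4.83 and 2.72 percentage points were 2.19 and 0.0057 without Vehicle B. Of the counts of coding Aplp2 transcripts, those with the Kunitz exon held 50.6%, 52.0%, 52.5% and 49.3% in AM6545 replicates B, D, E and F and 47.9%, 48.1% and 50.9% in Vehicle replicates B, D and E. These groups overlapped. The exon was thus in 47.9% to 52.5% of coding Aplp2 counts and in 5.88% to 6.61% of coding App counts, far apart in every library. Shares by exon were defined after the values had been seen and carry no test.

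A noncoding entry of Aplp2 varied more than its coding forms. Aplp2-207, a transcript that keeps an intron, held 9.57%, 11.8%, 8.48% and 17.3% of Aplp2 counts in AM6545 replicates B, D, E and F and 32.9%, 15% and 14.3% in Vehicle replicates B, D and E. Vehicle B was far above the other 6, and it was also the library with the highest mitochondrial share and the steepest GC slope; their part in the result was not tested. The groups overlapped (exact permutation p = 0.114, adjusted p = 0.371). The difference of -8.96 percentage points was -2.86 without Vehicle B.

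Bace1 counts were divided among 3 entries. Their shares carry the uncertainty of the Bace1 level, since genes on the opposite strand overlap 2061 of its exonic bases. The part of this overlap in the shares was not tested. Bace1-201 (501 codons), with the exon 6 shown above, held 48.3% ± 4.27 (SD, n = 4) with AM6545 and 48.9% ± 2.88 (SD, n = 3) with vehicle. Bace1-202 (467 codons), which skips that exon, held 26%, 20.5%, 26.4% and 22.6% with AM6545 and 12.2%, 23.3% and 16.4% with vehicle. The lowest values were those of Vehicle B and E, but Vehicle D lay among the AM6545 libraries (exact permutation p = 0.143, adjusted p = 0.371). Of the counts of coding Bace1 transcripts, those with exon 6 held 66.9% ± 2.96 (SD, n = 4) and 74.0% ± 7.28 (SD, n = 3), again with overlap. Bace1-204, a noncoding transcript with a kept intron, held 27.7% ± 5.57 (SD, n = 4) and 33.8% ± 3.13 (SD, n = 3).

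Psen2 counts came mainly from 3 transcripts with coding sequences of nearly the same length. Psen2-205 held 59.4% ± 5.55 (SD, n = 4) with AM6545 and 66.9% ± 4.20 (SD, n = 3) with vehicle, and Psen2-203, with the same number of codons, 448, held 33.4% ± 7.35 (SD, n = 4) and 27.8% ± 4.01 (SD, n = 3). Psen2-202, which has 1 codon less, held 6.46% ± 2.18 (SD, n = 4) and 3.91% ± 2.83 (SD, n = 3). The groups overlapped for all 3 shares. In CPM, Psen2-205 was 12.1, 15.3, 15.9 and 13.5 with AM6545 and 23.5, 18.0 and 18.1 with vehicle, without overlap (as for 10.8% of all transcripts), while Psen2-203 was 10.4, 6.86, 8.01 and 6.55 against 8.03, 9.18 and 7.38. The log2 fold change was -0.49 for Psen2-205 (SE 0.15, edgeR adjusted p = 0.559) and -0.04 for Psen2-203 (SE 0.20, adjusted p = 0.968); the difference between the 2 transcripts was not tested.

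The other 3 members were read almost wholly from 1 transcript. Adam10-201 (749 codons) held 99.6% to 100% of its gene's counts, Aplp1-201 (654 codons) 99.93% to 99.99% and Ncstn-201 (708 codons) 94.8% to 99.3%. The log2 fold change of Adam10-201 was 0.33 (SE 0.13, edgeR adjusted p = 0.572). Of the 25 member transcripts tested, none passed an adjusted p of 0.05 (edgeR over 33962 transcripts, background 0.0177%), and 3 had an unadjusted p under 0.05, Psen2-205, Adam10-201 and the minor App-205, against 8.39% of all transcripts. None of the 13 shares had groups that did not overlap.

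**Figure D5:**
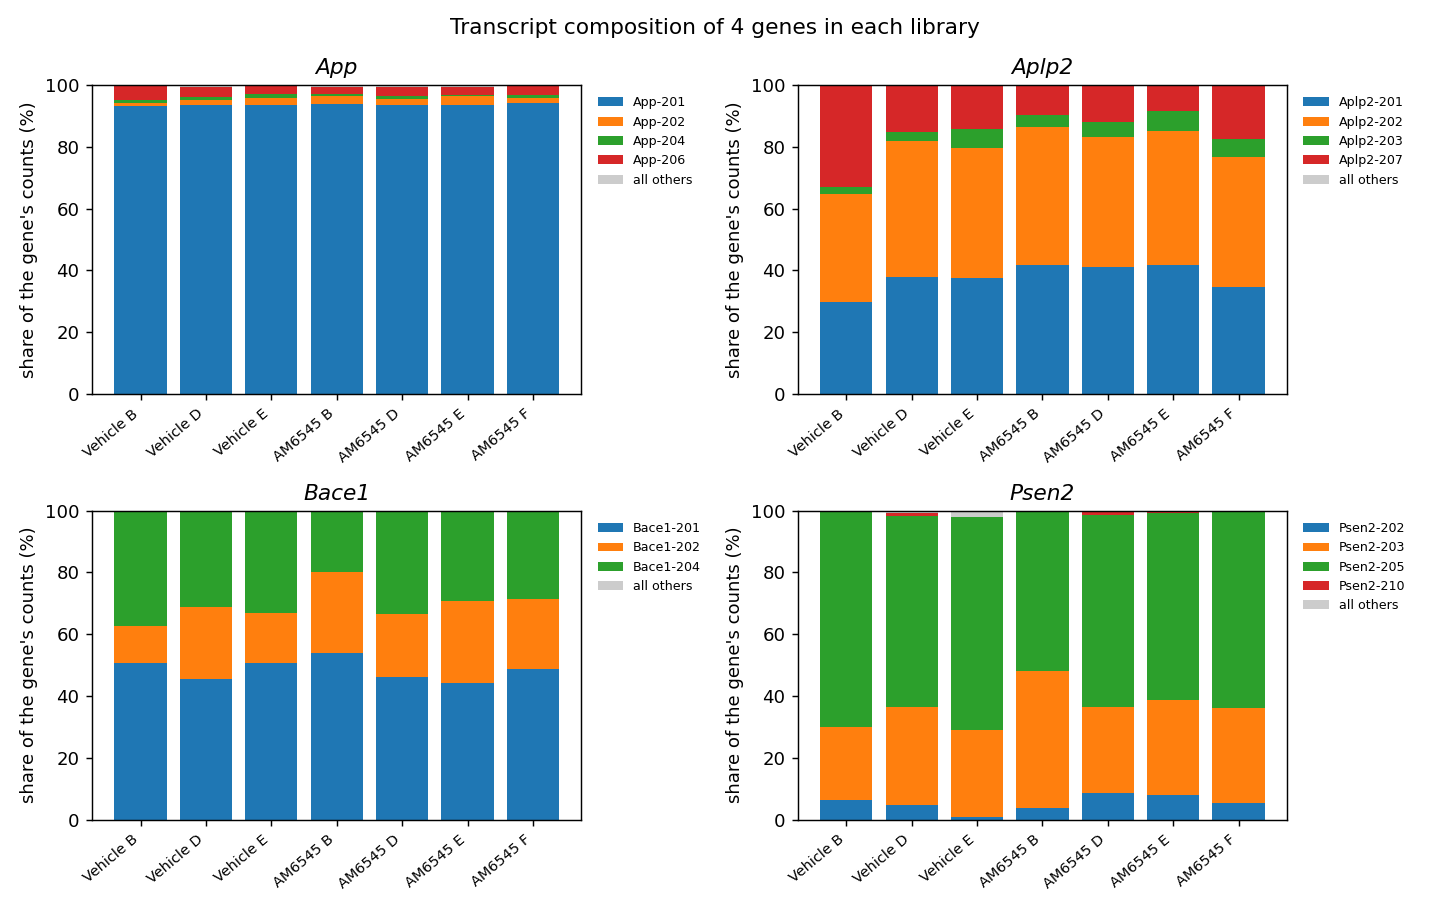
Share of a gene's estimated counts held by each of its main transcripts, 1 bar per library, for App, Aplp2, Bace1 and Psen2; grey stands for all other transcripts. App-201 fills over 93% of each App bar, and Aplp2-207 is largest in Vehicle B at 32.9%.

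Other genes of the pathway were followed in a list of 55, of which 54 passed the filter on low counts (Timp1 did not). None passed the adjusted threshold (edgeR), 26 were higher and 28 lower with AM6545, and the median log2 fold change was -0.01. At an unadjusted p under 0.05 there were 1 higher and 8 lower, 16.7% of the 54 against 14.6% of all genes (5.86% higher and 8.7% lower). The total of 9 was 2 after the GC and length correction, 3 without Vehicle B and 13 without Vehicle E. For those fits too, the share of all genes at that p is not given here. In the list of 4 further gamma-secretase subunit genes, 1 was higher and 3 were lower, with a median of -0.27, or -0.13 after the GC and length correction. Psenen, which encodes PEN-2, measured 37.2, 35.6, 36.8 and 37.8 CPM in AM6545 replicates B, D, E and F and 66.2, 49.4 and 38.3 CPM in Vehicle replicates B, D and E. The AM6545 libraries lay close together and all below the Vehicle libraries, of which Vehicle E was nearly level with them. Its log2 fold change of -0.48 (SE 0.15, edgeR adjusted p = 0.231) was -0.25 without Vehicle B, -0.09 after the GC and length correction and -0.65 without Vehicle E (adjusted p = 0.0231). Of the APH1 genes, Aph1a gave -0.19 (adjusted p = 0.414), Aph1b 0.04 (adjusted p = 0.898) and Aph1c -0.34 (adjusted p = 0.325). After the correction Aph1a was at -0.15, Aph1b at -0.11 and Aph1c at -0.52.

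Outside the complex, the 3 genes with the smallest unadjusted p on the higher side were Vps35, Adam9 and Timp2. Vps35, a core subunit of the retromer that sorts membrane proteins out of endosomes, gave 0.44 (SE 0.18, edgeR adjusted p = 0.315), with overlapping groups. Adam9, a sheddase of the same family as Adam10, gave 0.24 (SE 0.12, edgeR adjusted p = 0.379), and Timp2, an inhibitor of metalloproteases, 0.24 (SE 0.12, edgeR adjusted p = 0.387). On the lower side, beside Psenen, stood Tspan17, a tetraspanin of the group that guides Adam10 to the membrane, at -0.33 (SE 0.12, edgeR adjusted p = 0.257), and Apba3, an adaptor that binds the cytoplasmic tail of APP, at -0.26 (SE 0.10, edgeR adjusted p = 0.267). For both, each AM6545 library was below each Vehicle library, as for 7.19% of all genes. After the GC and length correction these values were 0.24 for Vps35, 0.09 for Adam9, 0.19 for Timp2, -0.09 for Tspan17 and -0.08 for Apba3. Without Vehicle B they were 0.24 for Vps35, 0.14 for Adam9, 0.25 for Timp2, -0.18 for Tspan17 and -0.24 for Apba3. There were 2 settings that called 3 genes of the list each. The limma-voom test called Psenen, Aph1c and Cntn2, all lower, and the fit without Vehicle E called Psenen and Cntn2, lower, and Vps35, higher. These 3 of 54 stand beside 2.69% of all genes called by limma-voom and 6.38% called without Vehicle E, so the latter is not above the background.

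The genes whose log2 CPM followed each member most closely over the 7 libraries were Emc1 (r = 0.99) and Slc24a3 (r = 0.98) for App, Mcoln1 and Rassf8 (both r = 0.98) for Aplp1, and Slc1a1 and Slc39a6 (both r = 0.99) for Aplp2. For the enzyme genes they were Tmem30a and Xylb (both r = 0.99) for Adam10, Itpripl1 and Pemt (both r = 0.99) for Bace1, Fkbp11 and mt-Nd4l (both r = 0.99) for Psen2, and Ifngr1 (r = 0.98) and Srd5a1 (r = 0.97) for Ncstn. They were picked as the highest among all genes tested, over the same 7 libraries, whose genes share depth and GC trends. Among those nearest to Psen2, mt-Nd4l is a gene of the mitochondrial genome, and Tmem30a, nearest to Adam10, had a log2 fold change of 0.32 beside 0.33 for Adam10.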

How the data were processed

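RNA from hippocampal synaptoneurosomes was sequenced in 7 libraries (SMARTer Ultra Low Input kit, per the labels' protocols). The authors deposited estimated counts per gene and per transcript, unscaled; 83.5% of gene values above 0 are not whole. Salmon 1.5.2 and mm10 are named in the submitters' processing notes. The annotation release, and whether strand was used in counting, are not given in the sources used here. Names, lengths, GC content and coordinates come from GENCODE M21 (GRCm38), which holds 22148 of the gene and 101527 of the transcript identifiers, 22135 genes at a lower version, so models may differ. Counts were rounded, scaled by TMM and tested with edgeR 4.0.16 (robust quasi-likelihood, R 4.3.3, filterByExpr) over all genes or transcripts, AM6545 against Vehicle, without covariates. limma 3.58.1 and DESeq2 1.42.0 were alternatives. Shares and ratios were tested by exact permutation (scipy 1.17.1). TPM used transcript lengths; the GC and length correction subtracted each library's lowess trend (span 0.3). The edgeR script was tested on simulated data. Members and lists were chosen with earlier results of these data known. Named were all members, their transcripts of at least 5% mean share, 3 pathway genes per direction with the smallest unadjusted p, and 2 genes per member with the highest r; Aph1a, Aph1b, Aph1c, Cntn2, Timp1 and App-205 were added after their values were seen. Replicate letters were not used to pair the libraries.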

Additional observations from a re-analysis of the deposited data

Results flagged for a closer look

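Of 37 values compared across the 4 AM6545 libraries, 3 had 1 library far from the others, where chance alone gives about 1.85 (1 in 20). The CPM of Ncstn was 121.3 in AM6545 E, 98.4 to 101.5 in the other AM6545 libraries and 103.5 to 109.4 in the Vehicle libraries. Aplp2-201, the form with the Kunitz exon, held 34.7% of Aplp2 counts in AM6545 F, 41.1% to 41.8% in the other AM6545 libraries and 29.7% to 37.8% in the Vehicle libraries. The CPM of Vps35 was 262.5 in AM6545 B, 201.5 to 208.1 in the other AM6545 libraries and 114.1 to 210.5 in the Vehicle libraries.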

How the results depend on the processing

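No member gene passed an adjusted p of 0.05 under any of 17 alternatives (lowest 0.0628, Psen2 without Vehicle E), and no member transcript under any of 11. Of the pathway list, 3 genes passed with limma-voom and 0 to 3 when 1 library was left out; over all genes the count was 1, but 944 without Vehicle E, 394 with limma-voom and 247 with DESeq2. The log2 fold changes of Adam10 (0.14 to 0.38), Psen2 (-0.39 to -0.15), Aplp2 (0.05 to 0.31) and Bace1 (-0.14 to -0.02) kept their sign under all 17. Those of App, Aplp1 and Ncstn did not: with the GC and length correction App was -0.0035, Aplp1 0.031 and the ratio of Aplp1 to App 0.035, and Ncstn was 0.018 with total counts and -0.093 to 0.013 when 1 library was left out. Per transcript length, the difference in share was -0.20 percentage points for App-201 and 0.17 for Bace1-201, and for Bace1-201 it ran from -2.50 to 0.78 when 1 library was left out. In TPM, which was not among the 17 and was not tested, Bace1 averaged 35.2 with AM6545 and 34.3 with vehicle. Aplp1 averaged 2258 and 2216 TPM and Ncstn 73.0 and 67.9, so all of these were higher with AM6545. App, Aplp2, Adam10 and Psen2 kept in TPM the direction of their log2 fold change. With gene counts over the median transcript length, levels were 3712 TPM for Aplp1, 694 for App, 40.6 for Bace1, 19.6 for Psen2 and 24.1 for Adam10. The cause of these shifts was not tested.

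The replicate letters are shared by the groups, but the labels do not say what they mark. Deviations of same-letter libraries gave r = -0.31 for B, -0.14 for D and -0.24 for E. Libraries of different letters gave r from -0.17 to 0.33, which overlaps these values. Same-letter libraries were thus not more alike, and they were not taken as pairs. With a replicate block 0 members passed. At an unadjusted p under 0.05 there were 1 member and 3 genes of the pathway list, and the share of all genes in that fit is not given here. Adam10 was 0.38, Psen2 -0.26 and Ncstn 0.0080 with the block, and with block and GC correction together Aplp1 was 0.064. Median depth ran from 555 counts for Psen2 to 66472 for Aplp1.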
